A study of Homo sapiens with 6 samples.

Results

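SATB1 encodes a chromatin organizer and is described here across 2 subclones of DLD-1, a human line of colorectal cancer cells. It was read on every probe set of the array whose annotation gives SATB1 as its single gene symbol, which found 3 probe sets of 41091 with 1 symbol, or 1 gene of 19775. The study hybridised total RNA of 6 samples, 1 oligonucleotide array each. Of these, 3 were labelled DLD-1Δα-Cat and 3 DLD-1α-Cat. Both groups are subclones derived from DLD-1, grown untreated for 96 h inside a gel of fibrous collagen (type I, 1 mg/ml). The label Δα-Cat is not spelled out, nor is it said how the subclones were made, and each group stands for 1 named subpopulation. The labels do not say whether the arrays of a group stem from different cultures, so the p-values cover the spread among these arrays alone, and that spread may be technical. All levels are log2 intensities as deposited, and every difference is the mean of DLD-1Δα-Cat less that of DLD-1α-Cat, in log2 units. SATB1 was selected on its measured difference between the subclones on these arrays, so its own values are given as a description, without a test.

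SATB1 protein binds AT-rich stretches of DNA at matrix attachment regions, where chromatin loops are anchored. It holds distant sites together and recruits histone deacetylases, acetyltransferases and remodelling complexes, so that it can silence or activate many genes of a region at once. It has a ubiquitin-like domain through which it oligomerises, a pair of CUT domains and a homeodomain. It is best known from thymocytes, where it is abundant, and has been studied in carcinomas for ties to metastasis and, in colorectal cancer cells, to Wnt signalling.

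RefSeq (GRCh38.p14) gives SATB1 4 promoter windows, each running from 250 bases before to 50 bases after a transcript start, and gives its antisense gene SATB1-AS1 one. The array does not tell which start was in use. The sequences below are the window of the most upstream SATB1 start, the SATB1 window richest in CG dinucleotides, and the window of SATB1-AS1, shown because the sense and antisense genes are read separately below although their starts lie close together. They are printed 5′ to 3′ on the strand of the gene, and capitals mark CG dinucleotides, the sites of DNA methylation.
SATB1, most upstream start, chr3:18445543-18445842, minus strand: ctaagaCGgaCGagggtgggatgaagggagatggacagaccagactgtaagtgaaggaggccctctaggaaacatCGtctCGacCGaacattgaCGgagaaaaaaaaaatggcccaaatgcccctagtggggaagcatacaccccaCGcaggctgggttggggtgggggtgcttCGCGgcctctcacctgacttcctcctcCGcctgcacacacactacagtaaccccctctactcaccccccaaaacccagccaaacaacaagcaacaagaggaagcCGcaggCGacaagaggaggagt
SATB1, start farthest into the gene, chr3:18425290-18425589, minus strand: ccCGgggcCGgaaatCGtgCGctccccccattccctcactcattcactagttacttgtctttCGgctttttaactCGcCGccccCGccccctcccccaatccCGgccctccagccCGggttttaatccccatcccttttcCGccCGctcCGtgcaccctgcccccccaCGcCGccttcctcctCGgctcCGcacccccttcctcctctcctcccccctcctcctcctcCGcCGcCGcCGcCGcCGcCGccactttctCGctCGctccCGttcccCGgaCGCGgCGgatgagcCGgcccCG
SATB1-AS1, chr3:18444987-18445286, plus strand: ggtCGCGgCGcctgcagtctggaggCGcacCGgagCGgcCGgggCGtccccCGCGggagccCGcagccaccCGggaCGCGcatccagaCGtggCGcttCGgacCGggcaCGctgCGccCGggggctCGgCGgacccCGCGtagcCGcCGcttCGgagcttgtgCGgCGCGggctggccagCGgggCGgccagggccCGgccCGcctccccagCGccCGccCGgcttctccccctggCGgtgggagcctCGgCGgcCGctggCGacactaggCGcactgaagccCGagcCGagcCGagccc

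The 3 printed windows held 12, 33 and 47 CG dinucleotides. The other SATB1 windows, chr3:18444069-18444368 and chr3:18438687-18438986, held 14 and 6. Of the 35116 windows of 300 bases in the RefSeq table, 53.1% held at least 12 and 17.2% at least 33, while 2.41% held at least 47. The start of SATB1-AS1 lay 355 bases inside the most upstream SATB1 transcript, on the other strand, so that the pair overlap there. It lay 1119 bases upstream of the next SATB1 start, from which it is transcribed away. Searched on both strands, the letters TATAAA were in none of the 5 windows, against 11.5% of all windows. CCAAT was in the 14-CG and the 33-CG window, against 34.6% of all windows. Expression arrays do not measure methylation or binding, and these counts describe the sequence alone.

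The labels were checked on CTNNA1, the gene of αE-catenin, which ties cadherins to actin at adherens junctions. It read 11.38, 11.30 and 11.01 in DLD-1Δα-Cat and 12.73, 12.74 and 12.79 in DLD-1α-Cat (difference -1.52, SE 0.119, limma adjusted p = 0.000838). Of 10 markers of a colon epithelial line, 9 lay above the median level of all genes in these arrays, and GPA33 did not. No marker of that list passed the limma test, and 0 had an unadjusted p under 0.05. A sign of RNA quality differed between the groups: for β-actin, the 3′ control probe set exceeded the 5′ one by 5.07 to 5.38 log2 units in DLD-1Δα-Cat and by 4.36 to 4.89 in DLD-1α-Cat, without overlap. Its part in the results below was not tested. Over all genes 5.52% were called at a limma adjusted p under 0.05, 3.84% higher and 1.67% lower in DLD-1Δα-Cat. The ranges of the subclones did not overlap for 27.2%. An unadjusted limma p under 0.05 was reached by 4109 of the 19775 genes.

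SATB1 was well measured in DLD-1α-Cat and low on the scale in DLD-1Δα-Cat. On its brightest probe set, 203408_s_at, it read 9.13, 9.83 and 9.10 in replicates 1 to 3 of DLD-1α-Cat. It read 3.86, 4.22 and 3.43 in DLD-1Δα-Cat. All 3 arrays of DLD-1Δα-Cat lay below the 25th percentile of every array's own values (4.23 to 4.35). This low range is called the floor here, since signal there may not be told from background. No background level was estimated. The lowest DLD-1α-Cat array stood 4.88 above the highest DLD-1Δα-Cat array, whereas arrays of a group spanned 0.725 and 0.784. The means were 3.84 ± 0.393 and 9.35 ± 0.411 (SD, n = 3 each), a difference of -5.52, or 45.7-fold on the scale of these values. Since the lower group sits at the array's floor, that fold is not a ratio of RNA copies. In these bulk samples, fewer cells with SATB1 RNA and less SATB1 RNA per cell cannot be told apart.

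The second probe set, 241365_at, was dimmer and showed the same separation. It read 6.53, 8.22 and 6.74 in DLD-1α-Cat and 3.53, 3.37 and 2.86 in DLD-1Δα-Cat. Here too the groups did not overlap, with a gap of 3.00 between their nearest arrays and a difference of -3.91. Replicate 2 of DLD-1α-Cat was the highest array on both probe sets and replicate 3 of DLD-1Δα-Cat the lowest.

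The third probe set, 244267_at, read near the floor on all 6 arrays. It stood at 3.19, 3.76 and 3.38 in DLD-1α-Cat and at 3.22, 3.23 and 3.23 in DLD-1Δα-Cat. The groups overlapped and differed by -0.21. It lay at or below percentile 18.0 of all probe sets on each array, so it holds little signal in either subclone, and 2 of the 3 probe sets carry the description of SATB1.

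**Figure D1:**
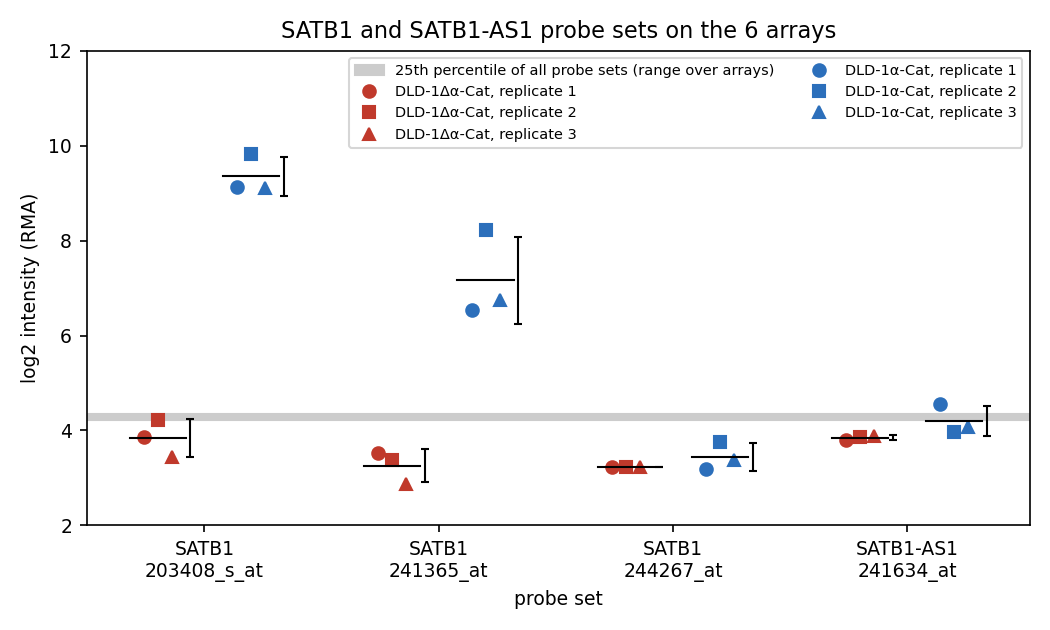
Log2 intensity of the 3 SATB1 probe sets and the SATB1-AS1 probe set on each array (red DLD-1Δα-Cat, blue DLD-1α-Cat; symbol shape gives the replicate number, the line the mean and the bar 1 SD, n = 3). The first 2 SATB1 probe sets separate the groups by 4.88 and 3.00 between nearest arrays, while the other probe sets stay near the grey band, the 25th percentile of all probe sets.

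Taken by replicate number, the first probe set differed by -5.27, -5.61 and -5.67, and the second by -3.00, -4.85 and -3.88. The second thus varied more from number to number than the first. Within each subclone SATB1 was among the more variable genes: its SD of 0.411 in DLD-1α-Cat exceeded that of 93.2% of all genes and its SD of 0.393 in DLD-1Δα-Cat that of 95.9%. The median gene had SDs of 0.171 and 0.124. In DLD-1Δα-Cat this spread was seen at levels near the floor, and its source was not tested. The other SATB1 probe sets, also low there, had SDs of 0.349 (241365_at) and 0.0082 (244267_at) in DLD-1Δα-Cat.

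Among all 19775 genes, each taken by its brightest probe set, none had a lower difference than SATB1, and 3 had a larger difference in either direction. The next lowest difference was -5.29. Below -4 there were 4 genes, SATB1 included, and above 4 there were 12, around a median of -0.030. These ranks use the contrast on which SATB1 was chosen and describe its place only.

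**Figure D2:**
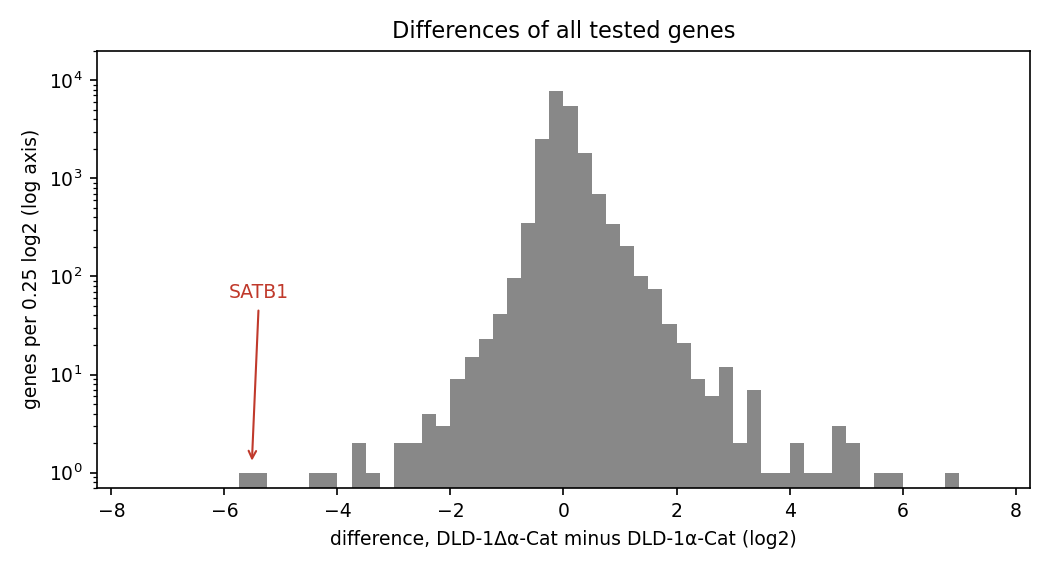
Number of genes (log axis) by difference between the subclones in bins of 0.25 on the log2 scale, for all 19775 genes. SATB1, at -5.52, is at the lower end, and 3 genes at the upper end differ by more.

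The genes nearest to SATB1 in pattern were found by the root mean square distance over the 6 arrays between gene profiles, each with its own mean subtracted. ODAM, which encodes a protein of tooth enamel attachment epithelium, was nearest, at a distance of 0.505. It read 9.94, 9.19 and 9.82 in DLD-1α-Cat and 4.34, 4.49 and 4.23 in DLD-1Δα-Cat. Its order within DLD-1α-Cat was not that of SATB1, because replicate 2 was the lowest array for ODAM and the highest for SATB1.

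HLTF, a helicase-like DNA translocase of damage tolerance, followed at a distance of 0.623. It read 10.25, 10.23 and 10.05 in DLD-1α-Cat and 5.92, 5.80 and 5.60 in DLD-1Δα-Cat. Next came the kelch-like gene KLHL4 (distance 0.808, difference -4.23), ERICH5 (1.05, -3.53), the choline transporter-like SLC44A4 (1.05, -3.57) and the carboxypeptidase CPA6 (1.16, -3.27). The seventh gene was at 1.40 and the median of all genes at 2.77. The distance mostly reflects the size of the difference between subclones, and all 6 genes were without overlap and lower in DLD-1Δα-Cat. The second probe sets of KLHL4, SLC44A4 and CPA6 differed by only -0.63, -0.67 and -0.24. When probe sets were averaged per gene in place of taking the brightest, only 2 of these 6 genes (KLHL4 and ERICH5) remained among the 6 nearest.

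**Figure D3:**
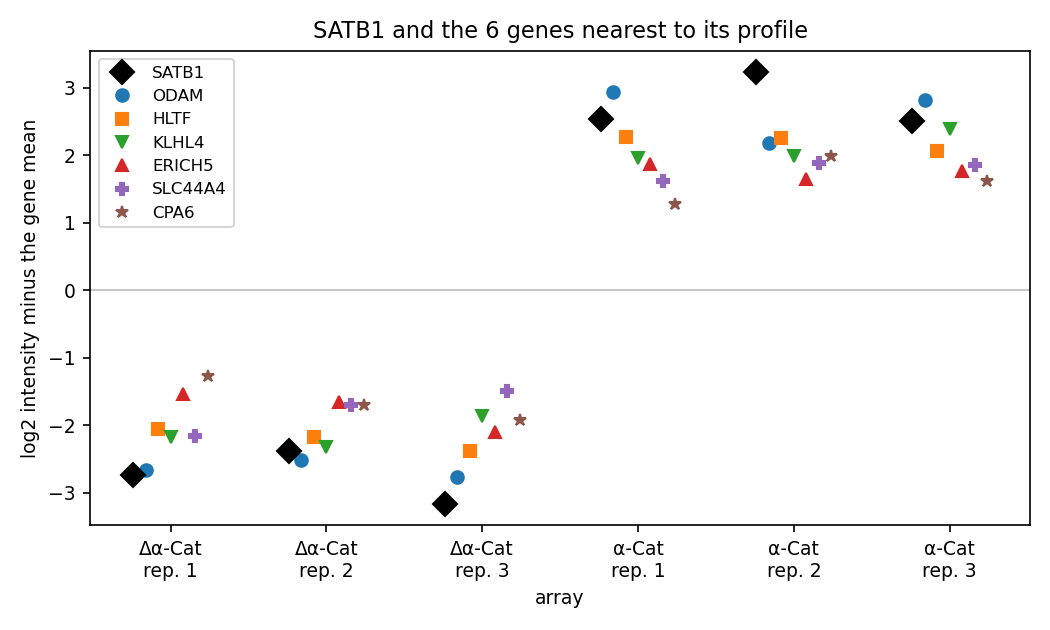
Log2 intensity minus each gene's mean over the 6 arrays, by array, for SATB1 (black diamonds) and the 6 genes of smallest root mean square distance to it. All 7 genes lie below 0 on the DLD-1Δα-Cat arrays and above 0 on the DLD-1α-Cat arrays, and SATB1 runs from -3.16 to 3.23.

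The antisense gene SATB1-AS1, a long noncoding RNA, did not share the difference of SATB1. It read 4.55, 3.96 and 4.08 in DLD-1α-Cat and 3.79, 3.87 and 3.88 in DLD-1Δα-Cat. The groups did not overlap, but the nearest arrays were only 0.080 apart. The difference of -0.35 (SE 0.158) did not pass limma's test over all genes (adjusted p = 0.268). All arrays but replicate 1 of DLD-1α-Cat, the highest at percentile 27.9 of all probe sets, read below the 25th percentile, so the probe set was at or near the floor throughout.

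Most genes next to SATB1 on chromosome 3 did not pass the test, though many were too dim to show a fall. Among the 10 tested genes on each side of SATB1 in RefSeq order, SATB1-AS1 left out, 1 was called higher and 1 lower. The share called over all genes was 5.52%. An unadjusted limma p under 0.05 was reached by 4 of the 20 neighbours, against 4109 of all 19775 genes. The median of the neighbours was 0.055, against -0.030 for all genes. The ranges of the subclones did not overlap for 4 of the 20 genes, where over all genes 27.2% were so. The immediate neighbours were BALR6, a noncoding RNA, at 0.059 (adjusted p = 0.807) and the potassium channel KCNH8 at 0.22 (adjusted p = 0.662), both dim.

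SGO1, which encodes shugoshin, the protector of centromeric cohesin in cell division, fell. It is the sixth tested gene on the side of KCNH8. It read 8.01, 7.76 and 7.60 in DLD-1Δα-Cat and 10.23, 10.03 and 10.05 in DLD-1α-Cat (difference -2.31, SE 0.131, limma adjusted p = 0.000203). The other SGO1 probe set overlapped between the groups and differed by -0.075. EFHB, an EF-hand protein of cilia and the second gene on that side, rose. It read 6.39, 6.15 and 6.68 in DLD-1Δα-Cat against 4.96, 5.49 and 5.51 in DLD-1α-Cat (difference 1.09, SE 0.193, adjusted p = 0.0218). Its dimmer probe set differed by -0.18. The call of EFHB was lost without replicate 1 or 3 of DLD-1Δα-Cat or replicate 3 of DLD-1α-Cat (limma adjusted p up to 0.0713) and with the mean of probe sets, which left 1 call among the 20 neighbours, whereas SGO1 kept its call whichever array was left out.

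**Figure D4:**
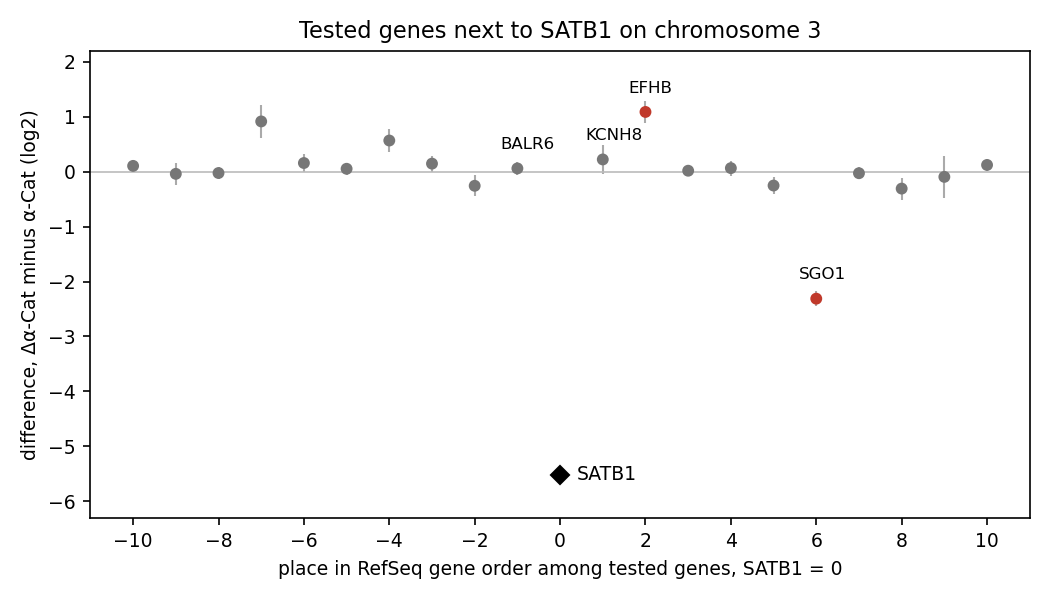
Difference between the subclones for the 10 tested genes on each side of SATB1 (points, with SE bars from limma; red marks adjusted p under 0.05) by place in gene order, with SATB1 as a black diamond. SATB1 at -5.52 stands among neighbours between -2.31 and 1.09, of which SGO1 and EFHB passed.

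Genes that work with SATB1 or have been tied to it were described as 7 lists with 115 different genes, of which 110 had a probe set of their own. In all, 3 rose and 3 fell in DLD-1Δα-Cat, 5.45% of those measured against the 5.52% called over all genes. The ranges of the subclones did not overlap for 31 of them, 28.2% against 27.2% over all genes. Their median difference was -0.019. The listed genes were thus called about as often as any others. With the replicate number as a block, 6 rose and 5 fell. In that fit 5.12% of all genes were higher and 2.27% lower, 7.39% in all. The pairing was inferred from these same arrays, and no label states it.

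The relatives of SATB1 with a CUT domain, transcription factors that pair this domain with a homeodomain, did not pass. Of 5 measured, 0 were called by limma and 1 had an unadjusted p under 0.05, against 4109 of all 19775 genes. The median of the 5 was 0.0082 and their range -0.24 to 0.51. CUX1, the one of them above the median level of all genes, read 11.09, 11.65 and 11.38 in DLD-1Δα-Cat and 10.41, 11.19 and 11.28 in DLD-1α-Cat, with overlap (difference 0.41, adjusted p = 0.394). ONECUT2, a factor of liver and endoderm, passed only with the replicate block (0.51, limma adjusted p = 0.0319, and 0.193 without it).

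Proteins that SATB1 recruits or that modify it were read on 22 genes, of which 0 rose and 1 fell. The shares over all genes were 3.84% higher and 1.67% lower. The list's median was -0.076. The ranges of the subclones did not overlap, in either direction, for 6 of the 22, or 27.3%, against 27.2% over all genes. HDAC1, the histone deacetylase that SATB1 brings to silenced sites, read 13.28 ± 0.0267 and 13.33 ± 0.0541 (SD, n = 3 each; DLD-1Δα-Cat first), a difference of -0.047 (limma adjusted p = 0.795). The deacetylase HDAC2 differed by -0.45 without overlap and narrowly missed the threshold (limma adjusted p = 0.052). It passed as lower with dim genes left out, the mean of probe sets, robust estimation with a variance trend, and array weights. The corepressor CTBP1 differed by -0.0020 (limma adjusted p = 0.993) and the nucleosome remodeller SMARCA5 by -0.066 (adjusted p = 0.697). The NuRD helicase CHD4 differed by -0.12 (adjusted p = 0.571). The acetyltransferase KAT2B differed by -0.25 (adjusted p = 0.375) and CASP6, a caspase that cleaves SATB1 in dying T cells, by -0.16 (adjusted p = 0.485). Among these partners, HDAC2 aside, the 95% limma interval of the difference was widest for KAT2B, at -0.60 to 0.094. It was -0.25 to 0.16 for HDAC1 and -0.22 to 0.21 for CTBP1. Changes inside a gene's own interval are not resolved.

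PML, the scaffold of nuclear bodies that associates with SATB1, was the partner that fell. It read 9.09, 9.12 and 9.24 in DLD-1Δα-Cat and 9.76, 9.67 and 10.03 in DLD-1α-Cat (difference -0.67, SE 0.120, limma adjusted p = 0.0227). Of its 10 probe sets 3 passed when every probe set was tested, all lower. With 1 array left out, the call held in 2 of 6 fits, those without replicate 1 or 2 of DLD-1α-Cat, and adjusted p reached 0.0963 in the others. It was also lost when probe sets were averaged.

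Genes of matrix attachment region binding and the nuclear scaffold, 20 in all, gave 0 higher and 1 lower. The shares over all genes were 3.84% higher and 1.67% lower. The list's median was -0.15, against -0.030 for all genes. TOP2B, a topoisomerase of matrix attachment and loop anchor sites, fell on its single probe set. It read 11.59, 11.45 and 11.44 in DLD-1Δα-Cat and 12.28, 12.39 and 12.07 in DLD-1α-Cat (difference -0.75, SE 0.115, adjusted p = 0.0125). Leaving out 1 array at a time kept its call in 4 of 6 fits, but not without replicate 2 or 3 of DLD-1Δα-Cat (limma adjusted p up to 0.0608). The ranges of the subclones did not overlap for 7 of the 20 genes, 6 of them lower in DLD-1Δα-Cat, where over all genes 27.2% did not overlap in either direction.

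The list of 17 architectural genes, which hold the cohesin ring, its loaders and CTCF, had 0 calls by limma. An unadjusted limma p under 0.05 was reached by 3, against 4109 of all 19775 genes. The list's median was 0.051. The members farthest from 0 were ESCO2, a cohesin acetyltransferase of S phase (-0.55, adjusted p = 0.118, and 0.0360 with the replicate block), and the cohesin loader NIPBL (0.55, adjusted p = 0.196). NIPBL read 10.09, 10.13 and 10.08 in DLD-1Δα-Cat but 9.15, 10.04 and 9.47 in DLD-1α-Cat, so most of its spread was in the latter.

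In carcinoma cells SATB1 has been tied to receptor kinases, matrix proteases and metastasis genes. Of 22 such genes 1 rose and 0 fell, against 3.84% higher and 1.67% lower over all genes. S100A4, a small calcium binder found in motile cells, read 13.72, 13.77 and 13.73 in DLD-1Δα-Cat and 12.79, 12.60 and 12.51 in DLD-1α-Cat (difference 1.11, SE 0.106, limma adjusted p = 0.00187), and kept its call whichever array was left out. The list's median was -0.015. The remaining 21 genes did not pass. With the replicate block FN1, the matrix protein fibronectin (0.62, limma adjusted p = 0.0269, and 0.210 without the block), also passed. So did the nucleoside diphosphate kinase NME1 (-0.48, limma adjusted p = 0.0360, and 0.121 without the block).

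Of 19 measured genes tied to SATB1 in immune cells, among them cytokines, lineage factors and antigen presentation genes, 2 rose and 0 fell. The shares over all genes were 3.84% higher and 1.67% lower. The list's median was 0.0053. RAG1, a subunit of the V(D)J recombinase of lymphocytes, read 8.24, 8.72 and 8.46 in DLD-1Δα-Cat and 6.87, 7.59 and 7.34 in DLD-1α-Cat (difference 1.21, SE 0.203, limma adjusted p = 0.0181). Its other probe set, near the floor, differed by 0.0071. RAG1 lost the call without replicate 2 or 3 of DLD-1Δα-Cat or replicate 3 of DLD-1α-Cat (adjusted p up to 0.0760). HLA-B, a class I antigen presentation molecule, rose by 0.54 (adjusted p = 0.0270) and kept its call in 1 of 6 fits that left out an array, the one without replicate 1 of DLD-1α-Cat. Its 3 probe sets may share signal with the near-identical class I genes, and the others differed by 0.16 and 0.22 without passing; averaging the probe sets ended the call.

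Of 10 Wnt effectors 0 rose and 1 fell, against 3.84% higher and 1.67% lower over all genes. The list's median was -0.043. LGR5, the R-spondin receptor of intestinal stem cells, read 6.60, 5.83 and 5.70 in DLD-1Δα-Cat and 8.80, 8.93 and 8.90 in DLD-1α-Cat, so its groups did not overlap (limma adjusted p = 0.000888). Both of its probe sets passed, at -2.83 and -1.23. TCF7L1, a repressing partner of β-catenin, passed only with the replicate block (0.45, limma adjusted p = 0.0414, and 0.329 without it). LEF1 differed by 0.43 without overlap and narrowly missed the threshold (limma adjusted p = 0.053). It passed as higher with a second quantile normalization, dim genes left out, robust estimation with a variance trend, and array weights.

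**Figure D5:**
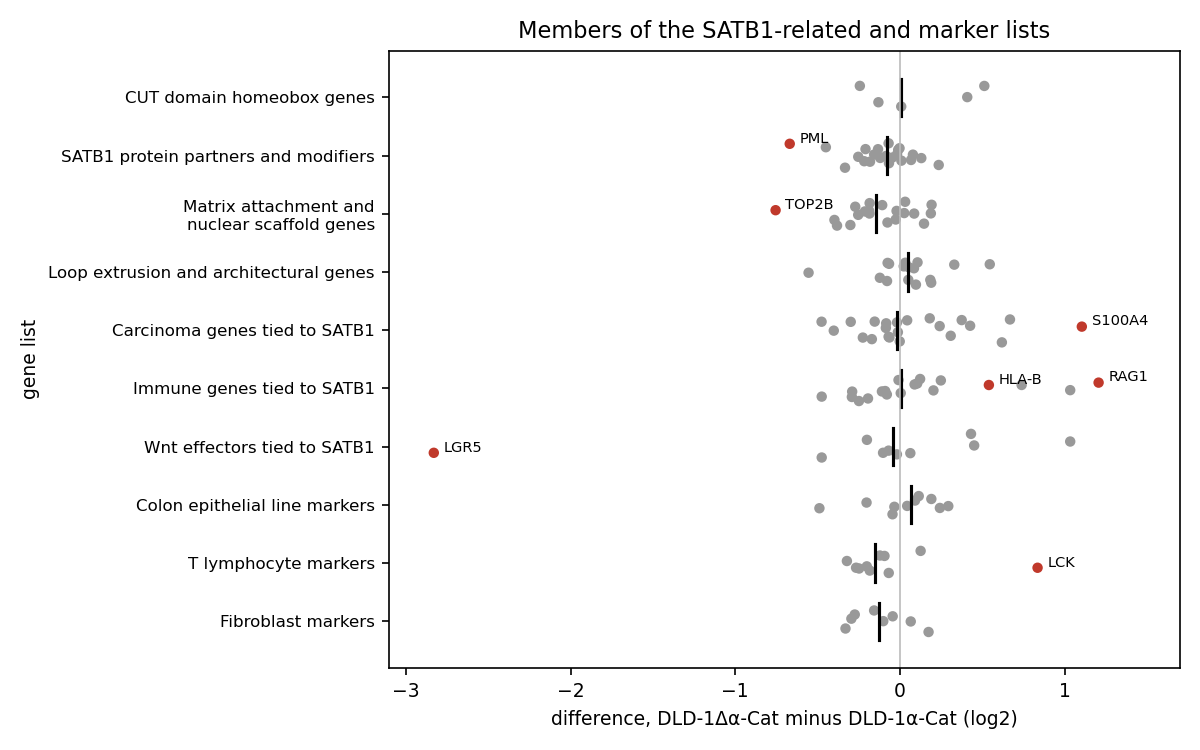
Difference between the subclones for each measured member of the 7 SATB1-related lists and the 3 marker lists (points; red and named where the limma adjusted p was under 0.05; the black line is the list's median). Medians lie between -0.15 and 0.068, and LGR5 at -2.83 is the member farthest from 0.

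T lymphocytes express SATB1 strongly, so their markers were read beside it. Of 10 markers, 1 rose, 0 fell and 4 lay below the 25th percentile on all arrays. The shares over all genes were 3.84% higher and 1.67% lower. The mean level over the 10 was 5.01 to 5.16 in DLD-1Δα-Cat and 4.98 to 5.31 in DLD-1α-Cat, with overlap. The markers CD247, IL7R, CD3D and CD5 lay above the 25th percentile on all arrays, as did LCK, given below. Means of the first 4 were 7.38, 6.82, 5.95 and 5.68 in DLD-1Δα-Cat. In DLD-1α-Cat they were 7.64, 6.70, 6.15 and 5.80. CD3E, a chain of the T cell receptor complex, stood at 2.99 ± 0.0839 and 3.06 ± 0.0378 (SD, n = 3 each; DLD-1Δα-Cat first), and the leukocyte phosphatase PTPRC at 3.34 ± 0.141 and 3.67 ± 0.251. The marker that rose was the kinase LCK, opposite in direction to SATB1. It read 7.46, 7.25 and 7.27 in DLD-1Δα-Cat against 6.55, 6.44 and 6.47 in DLD-1α-Cat (difference 0.84, SE 0.101, limma adjusted p = 0.00514). The other LCK probe set overlapped between the groups and differed by 0.45. It did not pass when every probe set was tested (limma adjusted p = 0.3075). Of 8 fibroblast markers 0 were called by limma and 1 had an unadjusted p under 0.05, against 4109 of all 19775 genes. The mean level over the 8 was 4.77 to 4.85 in DLD-1Δα-Cat and 4.75 to 5.12 in DLD-1α-Cat.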

How the data were processed

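The deposited values are log2 intensities that the authors made with RMA, using Affymetrix Expression Console; this comes from the submitters' processing notes, which name no versions. RMA subtracts background, quantile-normalizes arrays and summarises each probe set, so a shift common to all genes would be lost. Array medians were 6.12 to 6.15, and detection calls were not used here. The number of arrays limits the precision.

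From the 54675 probe sets, 62 controls were left out. The platform annotation of 2016 gave a single symbol for 41091 probe sets and several for 1801, and 11721 were not listed. By gene ID 41037 matched RefSeq (GRCh38.p14), used for names and gene order. Each of the 19775 genes was represented by the probe set of highest mean over all arrays, called its brightest here. Genes were tested with limma 3.58.1 in R 4.3.3 (lmFit, eBayes, two-sided, Benjamini-Hochberg over all genes, threshold 0.05), checked on simulated data. Errors are SD over arrays or SE from limma.

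SATB1 and the gene lists, compiled from general knowledge, were chosen with earlier results of these data known. By rule the text names SATB1 on every probe set, CTNNA1, the 6 genes nearest in pattern, up to 3 passing members per list and direction (where none passed, the 2 farthest from 0 above the median level of all genes), the nearest and the passing neighbours, the antisense gene and 6 direct partners. CD3E, PTPRC, CD247, IL7R, CD3D, CD5, GPA33, HDAC2, LEF1 and the genes called only with the replicate block were named after their values were seen. List genes without a single-symbol probe set were not analysed here.

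Groups and replicate numbers come from the sample titles. After subtracting group means, arrays of the same number correlated over genes at 0.225, 0.376 and 0.122. Each lay above 0.1, but no stated design pairs the numbers. The main fit was unpaired, and the replicate number entered only the alternative fit with the replicate block. Between the groups, arrays of different number correlated at -0.317 to 0.067. Alternatives were a second quantile normalization, centring, leaving out dim genes, the mean of probe sets, every probe set tested, a variance trend with robust estimation, array weights, the replicate block, and leaving out each array.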

Additional observations from a re-analysis of the deposited data

How the results depend on the processing

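The SATB1 difference of -5.52 stayed within 1 SD of itself under a second quantile normalization and centring, and lay between -5.71 and -5.28 when each array was left out. With the mean of its 3 probe sets, 1 of them at the floor, it was -3.21. Under that setting 2 of the 6 genes nearest in pattern and 1 call among the 20 neighbours were kept. The 3 higher and 3 lower list genes became 8 and 6 under robust estimation with a variance trend, 6 and 5 with the replicate block, and 5 lower with array weights. Over all genes 8.67%, 7.39% and 8.20% were called in these fits, against 14, 11 and 9 of the 110 list genes. The 6 calls were kept under each of these 3 settings. Without 1 array there were 1 to 3 higher and 1 to 4 lower list genes, and 1 to 2 calls among the neighbours; the fewest list calls, 1 and 1, came without replicate 2 or without replicate 3 of DLD-1Δα-Cat. S100A4 and LGR5 passed in all 6 of those runs. The block ended no call among the named genes and added FN1, ONECUT2, TCF7L1, ESCO2 and NME1; it cannot change a difference of means in this balanced design. The causes of these changes were not tested. Signal near the floor limits the fold of SATB1 and the reading of its dimmest probe set and of SATB1-AS1.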
